A study of Homo sapiens with 4 samples.

Results

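NFKB1, TNF, LTA, IL10, EBI3, CD44 and BCL3 are target genes of NF-kappaB, and their transcripts were followed here from the first hours to 24 h after knockdown of MYC. They were taken by gene symbol and are represented by 24 of the 15154 features of the array. The genes were chosen by their log2 ratios on the 4 arrays, early against 24 h, so these ratios are given as a description, without tests. MYC was knocked down in OCI-Ly10, a human lymphoma cell line derived from large B cells with the activated phenotype, by electroporating the cells with 4 uM of a siRNA pool. RNA of these cells, in Cy5, was hybridised together with control RNA, in Cy3, on 4 arrays. On a pair of arrays, at 8 h and at 24 h, the control cells had received 4 uM of an unrelated siRNA that targets Renilla luciferase. On the other pair, at 6 h and at 24 h, they had been electroporated in Solution T with no siRNA. MYC and control cells alike were thus electroporated, and the 6 h and 8 h arrays are called early below.

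NF-kappaB is a family of dimeric transcription factors held in the cytoplasm by inhibitory IkappaB proteins and freed when IkappaB kinase marks these for degradation. Its targets include its own subunits and inhibitors, so that a signal is both fed forward and switched off, as well as cytokines of the TNF family and surface proteins. In lymphomas of this kind the pathway is known for constant activity on which the cells depend for survival. NFKB1 encodes the p105 precursor of a DNA-binding subunit, and BCL3 a nuclear IkappaB protein that binds subunit homodimers. TNF and LTA encode cytokines of the TNF family, IL10 an immunosuppressive cytokine, EBI3 a secreted subunit shared by heterodimeric cytokines, and CD44 the main receptor for hyaluronan.

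Values were log2 ratios of MYC siRNA over control, so that 0 means equal amounts. The direction was taken from the dyes and is likely rather than stated. MYC itself was at 52.1% (8 h) and 78.6% (24 h) of control siRNA cells, and at 41.9% (6 h) and 48.8% (24 h) of cells without siRNA. Arrays gave values for 12028 to 12784 features. The 24 h array against no siRNA was the widest: the median standard deviation (SD) between features of the same gene was 0.307 there and 0.182 to 0.191 on the others. There was 1 array per control and time, and 0 dye swaps. Ratios carry no levels, so the labelled cell type could not be checked from its markers.

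By the mean of their features, the 7 genes fell into a group of 4 and a group of 3. NFKB1, TNF, LTA and IL10 lay above control on the early arrays and close to or below it at 24 h, with early means of 0.19 to 0.39 and 24 h means of -0.36 to -0.19. EBI3, CD44 and BCL3 lay above control on all 4 arrays, with early means of 0.43 to 0.53 and 24 h means of 0.38 to 0.44. Averaged over both kinds of control, 24 h minus early was -0.57 for NFKB1, -0.54 for TNF, -0.55 for LTA and -0.55 for IL10. The same difference was 0.01 for EBI3, -0.14 for CD44 and -0.02 for BCL3. Its SD over all 6798 rows of the array (genes, or features without a symbol, with values on all arrays) was 0.25, around a median of 0.0005.

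**Figure D1:**
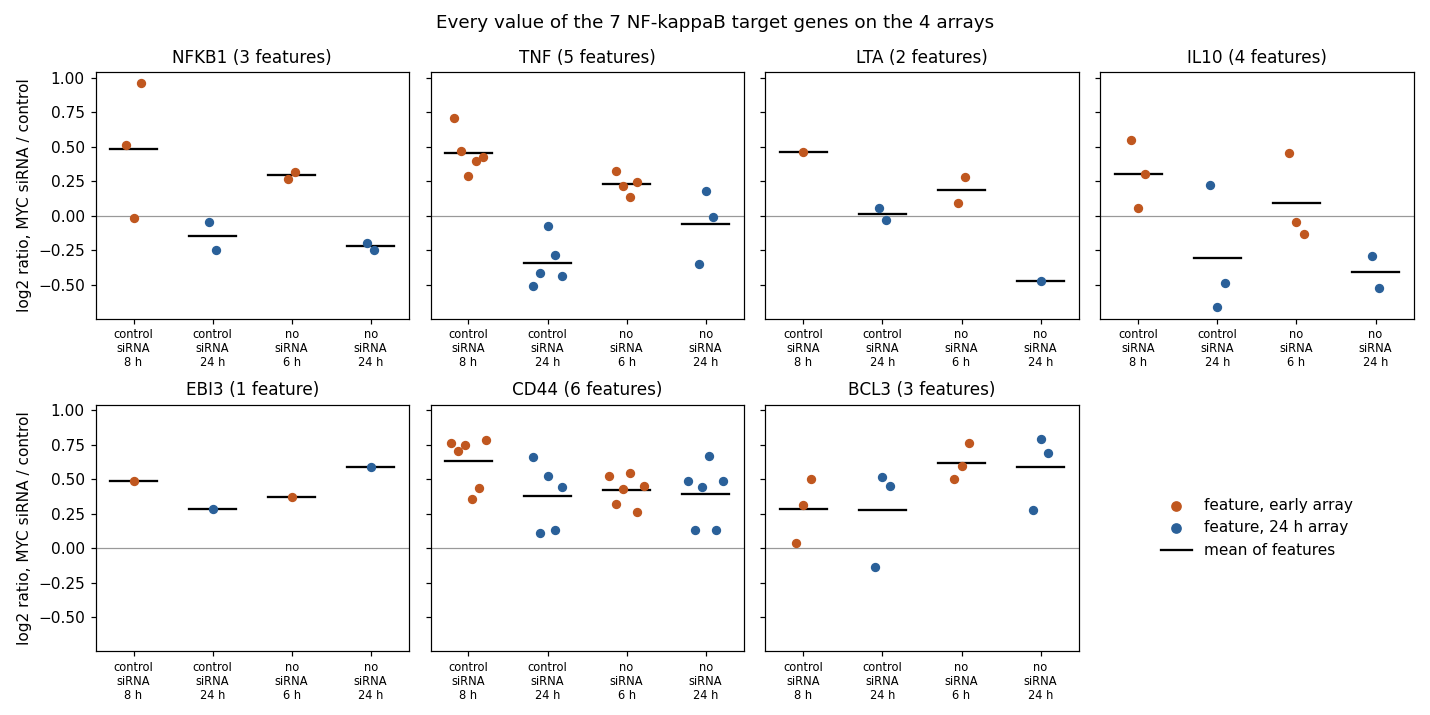
Log2 ratios of MYC siRNA over control (vertical axis) for every feature of the 7 genes on the 4 arrays (horizontal axis). Points are features, orange on the early arrays and blue at 24 h, and black lines are their means. TNF features lie between 0.29 and 0.71 at 8 h and between -0.51 and -0.08 at 24 h against control siRNA, while every CD44 feature stays above 0.

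Of the 96 possible values, 82 were present. On the 8 h array 21 of 22 values lay above 0, and on the 6 h array 19 of 21. At 24 h this was 10 of 21 against control siRNA and 11 of 18 against no siRNA. Of 20 features with both arrays against control siRNA, 19 were lower at 24 h than at 8 h. Against no siRNA 12 of 18 were lower at 24 h than at 6 h. The genes were chosen by these same ratios, so the counts describe that choice and are no separate finding. Like shares over all features of the array were not counted, so there is no background to set beside them. Features of a gene share their target and are not replicates of a condition. Of the 24 features, 16 had values on all arrays, 7 on some and 1, for IL10, on none.

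Because the members are targets of 1 factor and moved in 2 different ways, the DNA before their start sites is shown for NFKB1 and TNF, of the group lower at 24 h, and for EBI3 and BCL3, of the group that stayed high. Sequences are the 250 bases before a start site, from RefSeq (GRCh38.p14), where all 7 members matched with 11 start sites. Each is on the plus strand. Capitals mark matches to GGGNNNNNCC on either strand, a loose form of the site that NF-kappaB dimers bind, and neighbouring matches run together.
NFKB1, chr4:102501109-102501358: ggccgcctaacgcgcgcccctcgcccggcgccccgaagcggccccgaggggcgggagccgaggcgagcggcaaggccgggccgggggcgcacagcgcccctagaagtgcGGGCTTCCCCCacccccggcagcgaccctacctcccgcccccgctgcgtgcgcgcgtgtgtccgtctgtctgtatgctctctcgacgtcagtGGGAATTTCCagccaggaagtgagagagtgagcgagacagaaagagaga
TNF, chr6:31575315-31575564: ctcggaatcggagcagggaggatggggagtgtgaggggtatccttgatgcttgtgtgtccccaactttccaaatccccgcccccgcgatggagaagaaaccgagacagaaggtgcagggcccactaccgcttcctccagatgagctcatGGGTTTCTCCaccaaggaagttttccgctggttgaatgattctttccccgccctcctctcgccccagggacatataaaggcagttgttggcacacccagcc
EBI3, chr19:4229273-4229522: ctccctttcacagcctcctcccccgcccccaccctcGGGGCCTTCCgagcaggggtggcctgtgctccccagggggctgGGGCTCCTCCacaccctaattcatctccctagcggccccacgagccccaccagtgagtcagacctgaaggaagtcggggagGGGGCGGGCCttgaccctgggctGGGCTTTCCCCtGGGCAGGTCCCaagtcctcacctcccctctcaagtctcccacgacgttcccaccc
BCL3, chr19:44748458-44748707: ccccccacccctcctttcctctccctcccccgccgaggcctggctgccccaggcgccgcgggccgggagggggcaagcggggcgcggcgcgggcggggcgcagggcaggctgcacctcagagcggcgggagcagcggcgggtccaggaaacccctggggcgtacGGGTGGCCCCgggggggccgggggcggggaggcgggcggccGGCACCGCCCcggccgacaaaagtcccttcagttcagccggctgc
The loose motif was present in 54.4% of all 35116 such windows and in 8 of the 11 windows of the members. By gene it lay before a start of 6 of the 7 members, IL10 being the exception over its 3 starts. The stricter kappaB consensus motif, whose matches all overlap the loose form, was present in 9.96% of windows. It was found in 3 of the 11 windows of the members, before NFKB1, LTA and EBI3. In NFKB1 it was GGGAATTTCC, at bases 49 to 40 before the first listed start, and the other start had no match. In LTA matches overlapped between bases 104 and 94 before the second listed start, among them GGGGCTTCCC, and in EBI3 the match was GGGGCCTTCC at bases 214 to 205. The MYC E-box CACGTG, a palindrome that reads alike on either strand, was found in 6.34% of windows and in 0 of the 11 of the members. A match describes letters and is not evidence of binding, and both groups held genes with and without the consensus.

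NFKB1, the subunit gene of the set, stood at 0.48 (8 h) and -0.15 (24 h) relative to control siRNA, and at 0.29 (6 h) and -0.22 (24 h) relative to no siRNA. Both early values were thus higher than both 24 h values. In percent of control these are 139.8%, 90.1%, 122.3% and 85.6%. Its 3 features disagreed at 8 h, with -0.02, 0.51 and 0.96. The feature with the highest value there was empty at 24 h on the array against control siRNA. Over the 2 features with both arrays, 24 h minus 8 h was -0.40 instead of -0.63. Against no siRNA the 2 features measured gave -0.46 and -0.57 for 24 h minus 6 h.

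BCL3, which can act as an inhibitor or as a coactivator of NF-kappaB, stood at 0.29 (8 h) and 0.28 (24 h) relative to control siRNA. Relative to no siRNA it stood at 0.62 (6 h) and 0.59 (24 h). Its ratios differed by the kind of control, with means of 0.28 and 0.60, and hardly by time, with differences of -0.01 and -0.03. The array identifiers in the labels also separate by kind of control, and what they mark beyond a database number is not stated. Of its 12 values 11 were above 0. The exception, -0.13, came from a feature that was the lowest of the 3 on each array.

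TNF, a ligand that itself activates NF-kappaB, stood at 0.46 ± 0.16 at 8 h and at -0.35 ± 0.17 at 24 h relative to control siRNA (SD over 5 features each). All 5 features were lower at 24 h, with differences from -1.22 to -0.37. Relative to no siRNA it stood at 0.23 (6 h, 4 features) and -0.06 (24 h, 3 features). The 3 features disagreed at 24 h, with -0.35, -0.01 and 0.18, and the median over all rows of that array was -0.04. The sign of TNF there thus rested mainly on 1 feature. Here 2 of the 3 shared features were lower at 24 h, and the differences ran from -0.56 to 0.05. The sign was the same for both kinds of control, and the size was -0.80 against control siRNA and -0.29 against no siRNA.

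LTA encodes lymphotoxin alpha and is the neighbour of TNF on the chromosome in the RefSeq annotation, with LTB on the other side. It stood at 0.46 (8 h) and 0.01 (24 h) relative to control siRNA, and at 0.19 (6 h) and -0.47 (24 h) relative to no siRNA. Of its 2 features only 1 had values on all arrays, and this feature gave 0.46, -0.03, 0.28 and -0.47 in the same order. The difference of 24 h minus early was -0.45 against control siRNA and -0.66 against no siRNA. LTB, whose product joins with that of LTA on the cell surface, stood at 0.15, -0.04, -0.16 and -0.23, so that its early values were not both above 0.

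IL10 stood at 0.30 (8 h) and -0.31 (24 h) relative to control siRNA, and at 0.09 (6 h) and -0.41 (24 h) relative to no siRNA. Its features agreed less in level than in difference. A feature with values of 0.55, 0.22 and 0.45 was above 0 wherever it was measured and was empty on the 24 h array against no siRNA. Of the other 2, the first gave 0.05 and -0.67 relative to control siRNA and -0.05 and -0.29 relative to no siRNA, early value first. The last gave 0.30 and -0.49, then -0.14 and -0.52. All features with both arrays of a pair were lower at 24 h. Over those 3 and 2 features, 24 h minus early was -0.61 and -0.31. The value of -0.50 without that matching on the arrays against no siRNA partly reflects the empty cell.

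EBI3, whose product pairs with IL12A or IL27 subunits, was measured by 1 feature. It stood at 0.49 at 8 h, 0.285 at 24 h, 0.37 at 6 h and 0.59 at 24 h, the first pair against control siRNA. Its mean was 0.43 ± 0.13 (SD over 4 arrays). The difference of 24 h minus early was -0.20 against control siRNA and 0.21 against no siRNA, so early and 24 h values overlapped.

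CD44, which binds hyaluronan and links the membrane to the cytoskeleton, had 6 features and 23 values, all above 0. It stood at 0.63 ± 0.19 (8 h, SD over 6 features) and 0.38 ± 0.24 (24 h, SD over 5 features) relative to control siRNA. Relative to no siRNA it stood at 0.42 ± 0.11 (6 h) and 0.39 ± 0.21 (24 h, SD over 6 features each). All 5 features shared by the arrays against control siRNA were lower at 24 h, with differences from -0.59 to -0.11, and 3 of 6 were lower against no siRNA. Its 24 h values lay below both early values, as those of NFKB1, TNF, LTA and IL10 did, but stayed above 0.

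**Figure D2:**
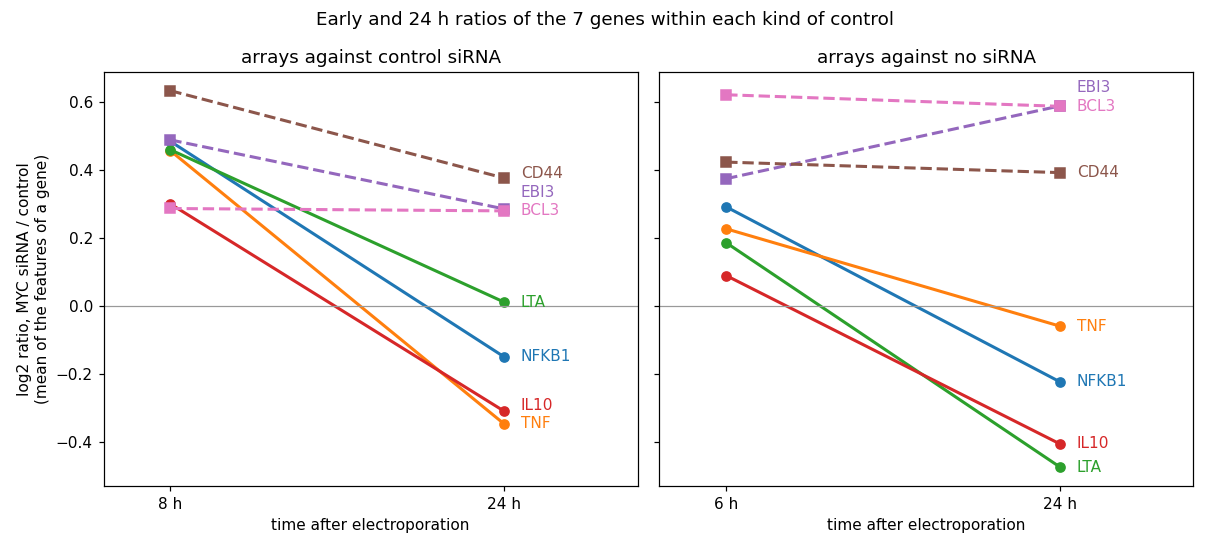
Log2 ratio of MYC siRNA over control, as the mean over the features of a gene (vertical axis), at the early time and at 24 h (horizontal axis), with the arrays against control siRNA on the left and those against no siRNA on the right. Solid lines are NFKB1, TNF, LTA and IL10, which run downward in both panels, and dashed lines are EBI3, CD44 and BCL3, which stay between 0.28 and 0.63.

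Set against the whole array, both 24 h values lay below both early values in 5 of the 7 genes, and in 19.1% of rows. Early values above 0 with 24 h values below 0 were found for NFKB1, TNF and IL10, and for 4.21% of rows. Over only the features with values on all arrays, NFKB1 was at -0.02 at 8 h (1 feature) and IL10 at -0.09 at 6 h (2 features). Their early sign thus rested on features that were empty on some array, while the pattern was found for TNF and LTA over complete features, and for 4.16% of 6753 such rows. For TNF the 24 h value against no siRNA was close to 0, at -0.06. EBI3, CD44 and BCL3 were above 0 on all arrays, as were 19.4% of rows. A 24 h minus 8 h difference of -0.5 or lower was found for NFKB1, TNF and IL10 against control siRNA, and for 4.55% of rows. The like difference of 24 h minus 6 h against no siRNA was found for NFKB1 and LTA, and for 8.11% of rows. Ratios of 0.5 or higher were found for CD44 on the 8 h array (3.66% of rows), BCL3 on the 6 h array (2.62% of rows), and EBI3 and BCL3 on the 24 h array against no siRNA (8.72% of rows). As these values entered the choice of the genes, nothing further is read from the counts.

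**Figure D3:**
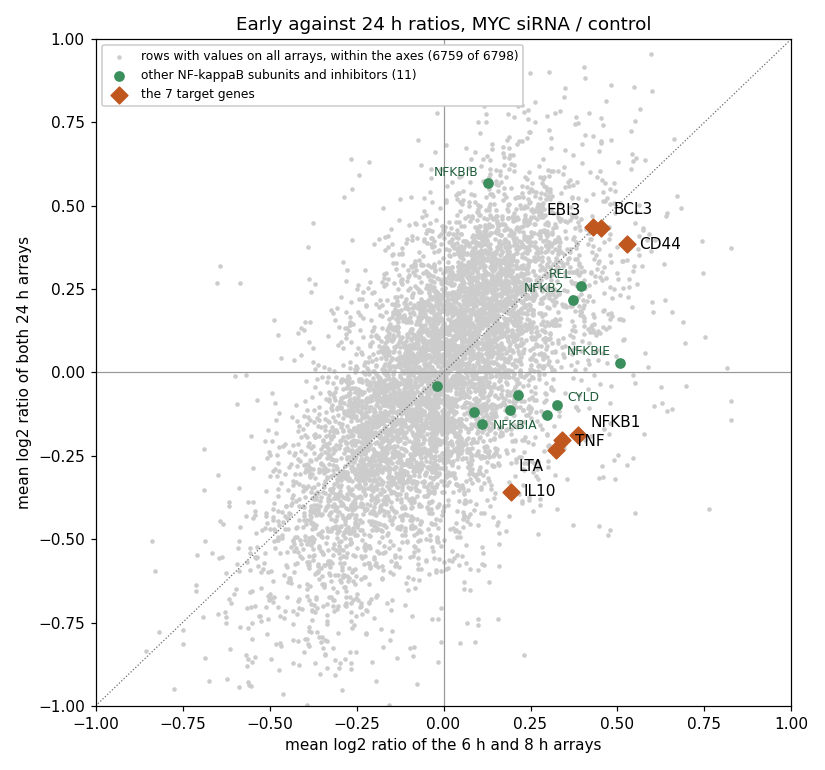
Mean log2 ratio of the 6 h and 8 h arrays (horizontal axis) against that of both 24 h arrays (vertical axis) for 6759 of 6798 rows (grey), 11 other subunits and inhibitors of NF-kappaB (green) and the 7 genes (orange). The dotted line marks equal values. NFKB1, TNF, LTA and IL10 lie in the lower right quadrant, and EBI3, BCL3 and CD44 lie near the line.

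The other genes of the pathway were tested with limma over all 6798 rows. Of 146 listed genes in 6 lists, 108 were measured on all 4 arrays. In the mean over the arrays 9 were higher (5.56% of all rows were) and 2 lower (10.2% of all rows were), and 97 did not pass. The median of the 108 was 0.06, against -0.003 over all rows. For 24 h minus early 0 of 108 passed (0.118% of all rows did, in limma), with a median of -0.08 against 0.0005. At an unadjusted p under 0.05, 8 were lower (6.08% of all rows) and 6 higher (4.03% of all rows). Both 24 h values lay below both early values in 32 of the 108, or 29.6%, against 19.1% of all rows. By list these were 3 of 4 subunits, 5 of 7 inhibitors, 5 of 20 kinases and adaptors, 2 of 24 genes of the TNF family list, 4 of 19 cytokines and 13 of 35 other targets. The lists were chosen with earlier results of these data known, so these shares are a description and no independent check. In the mean, 3 genes passed once the 8 h array was dropped and 1 once the 24 h array relative to no siRNA was dropped. Dropping the 6 h array, or the 24 h array relative to control siRNA, left 0 (limma, with 22 to 31 genes at an unadjusted p under 0.05 over these settings). The labels do not say whether the arrays come from separate cultures, so p-values measure only the spread between these arrays. For the mean, that spread includes differences of time and kind of control and is not a spread between replicates.

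Among the other NF-kappaB subunits, REL and NFKB2 rose with MYC siRNA in the mean over arrays (5.56% of all rows did). RELA and RELB did not pass. REL, a subunit typical of B cells, averaged 0.33 ± 0.17 (SD, n = 4; limma adjusted p = 0.0452), with 0.42, 0.07, 0.38 and 0.45 in the order 8 h and 24 h against control siRNA, then 6 h and 24 h against no siRNA. NFKB2, the p100 precursor of the alternative pathway, averaged 0.30 ± 0.10 (SD, n = 4; limma adjusted p = 0.0458), with 0.43, 0.20, 0.31 and 0.24. RELA was at -0.02 and RELB at 0.07. The differences of 24 h minus early were -0.15 for NFKB2, -0.21 for RELA, -0.28 for RELB and -0.14 for REL, with standard errors (SE) of 0.18 to 0.19, and 0 passed (limma, 0 also at an unadjusted p under 0.05). The 3 without overlap between early and 24 h values were NFKB2, RELA and RELB.

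Of 7 inhibitors and negative regulators measured on all arrays, 0 passed in the mean and 0 for 24 h minus early (limma). At an unadjusted p under 0.05, 3 were lower at 24 h (6.08% of all rows) and 1 higher (4.03% of all rows, limma). The list was chosen with earlier results known, so these counts are a description. NFKBIA, the IkappaB alpha gene and a rapid target of NF-kappaB, stood at 0.31 and -0.10 against control siRNA and at 0.29 and -0.15 against no siRNA, early value first. Its difference was -0.43 ± 0.18 (SE, limma adjusted p = 0.424). NFKBIE stood at 0.61, -0.03, 0.40 and 0.09 (difference -0.48 ± 0.19, limma adjusted p = 0.357). CYLD, a deubiquitinase that restrains the pathway, stood at 0.46, 0.14, 0.19 and -0.33 (-0.42 ± 0.18, limma adjusted p = 0.434). TNFAIP3, which encodes A20, differed by -0.30 and PIAS1 by -0.27. NFKBIB stood on the other side, at -0.09, 0.47, 0.35 and 0.67 (0.44 ± 0.18, limma adjusted p = 0.407), and NFKBID differed by -0.02. NFKBIL1 had values of -0.16 and 0.19 on the arrays against control siRNA and none on the others, and TNIP2 had none. CYLD and NFKBIB were each read from 1 feature.

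**Figure D4:**
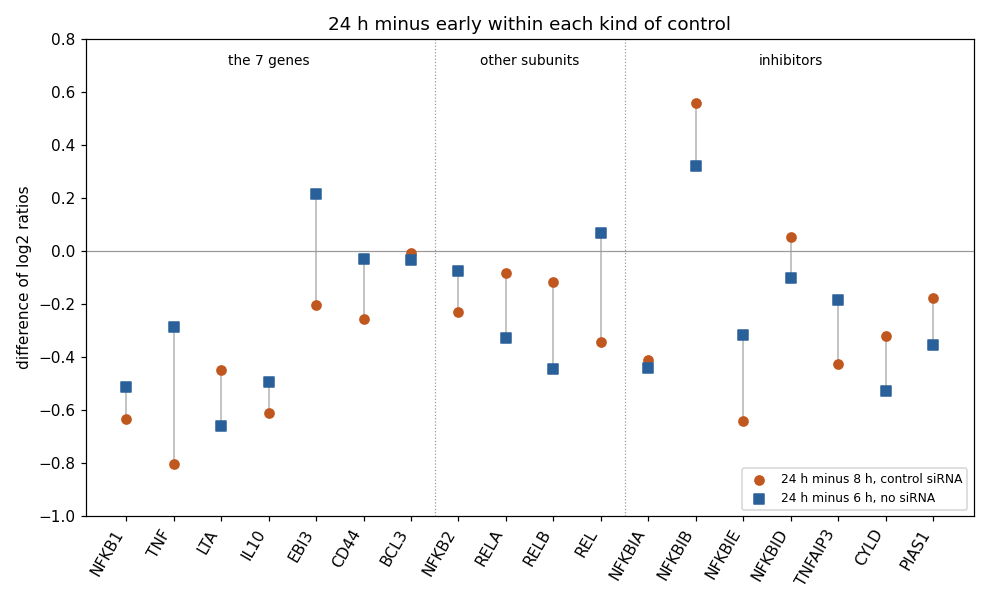
Difference of log2 ratios, 24 h minus early (vertical axis), against control siRNA (orange circles) and against no siRNA (blue squares), for the 7 genes, 4 other subunits and 7 inhibitors of NF-kappaB (horizontal axis). Both differences lie above 0 for NFKBIB and on opposite sides of 0 for EBI3, REL and NFKBID, and both lie below 0 for each other gene drawn, from close to 0 for BCL3 to -0.80 and -0.29 for TNF.

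Of 20 kinases and adaptors upstream of NF-kappaB, 1 was higher, 0 lower and 19 did not pass in the mean, with a median of 0.02. Over all rows 5.56% were higher and 10.2% lower in the mean, so 1 of 20 is near the share of all rows. The higher gene was IKBKG, the regulatory subunit of IkappaB kinase, read from 1 feature, at 0.47 ± 0.24 (SD, n = 4; limma adjusted p = 0.0252). The TNF family list holds ligands, receptors and the protease gene ADAM17. Of its 24 other genes, 1 fell (10.2% of all rows did), 0 rose and 23 did not pass. The gene that fell was TNFRSF1A, the main receptor for TNF, read from 1 feature. Its mean was -0.32 ± 0.18 (SD, n = 4, limma adjusted p = 0.0473). The median of the 24 was 0.02 at 8 h and -0.05 at 6 h, against -0.004 and -0.01 over all rows. The highest of them at 8 h were TNFSF10 with 0.85, TNFRSF1B with 0.69 and TNFSF13 with 0.55, named after their values were seen. On the other early array, at 6 h, these genes stood at 0.10, -0.42 and 0.08.

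Of 19 other cytokine and chemokine genes, 2 were higher, 1 lower and 16 did not pass. Beside this list and the next, 5.56% of all rows were higher and 10.2% lower. CSF3 averaged 0.41 ± 0.30 and CSF1 0.36 ± 0.24, both colony-stimulating factors, while IL2, a T-cell growth factor, averaged -0.60 ± 0.30 (SD, n = 4 each; limma adjusted p = 0.0447, 0.0489 and 0.0192). IL2 was read from 1 of its 2 features, and its signal over background is unknown. Of 35 target genes with roles in survival, at the surface or in transcription, 4 were higher, 0 lower and 31 did not pass, with a median of 0.13. PLEK, which encodes pleckstrin, averaged 0.40 ± 0.14 and the phosphatase gene PTPN1 0.40 ± 0.11. BCL2A1, a survival gene of the BCL2 family, averaged 0.34 ± 0.21 and B2M, the light chain of MHC class I, 0.32 ± 0.18 (SD, n = 4 each; limma adjusted p = 0.0232 to 0.0479 for these 4).

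Partners of the encoded proteins were taken from separate lists. In the mean 5.56% of all rows were higher and 10.2% lower, which is the background for the genes passing below. For interleukin-10, the receptor chains IL10RA and IL10RB averaged 0.23 and 0.19, JAK1 -0.09 and STAT3 0.10, and none of these passed. SOCS3, a feedback inhibitor of cytokine signalling, rose by 0.36 ± 0.22 (SD, n = 4; limma adjusted p = 0.0418) and was the only one of 10 measured partners to pass, while SOCS1 was at -0.01, JAK2 at 0.18, IL6ST at 0.04, IL27RA at 0.11 and IL12A at -0.17. IL12RB1 had values of 0.45 at 8 h, -0.32 at 6 h and -0.81 at 24 h relative to no siRNA, and IL12RB2 had 0.34 at 8 h and no other. STAT3 stood at 0.52, -0.04, 0.14 and -0.23, a difference of -0.46 ± 0.18 between 24 h and early (SE, limma adjusted p = 0.368). Of 6 partners of CD44, CD74, the invariant chain that signals with CD44, rose by 0.37 ± 0.07 and MMP14, a protease that cleaves CD44, fell with a mean of -0.32 ± 0.17 (SD, n = 4 each; limma adjusted p = 0.0252 and 0.0489). CD74 differed by 0.01 between 24 h and early. MMP14 was read from 1 feature.

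The genes whose 4 ratios lay nearest to those of a member were sought among 3953 other named genes by Euclidean distance over the 4 arrays, where a distance of 0 is an identical profile. Nearest to NFKB1 were GADD45B (distance 0.163), STAT3 (0.191) and NFKBIA (0.195), all from the pathway lists. The ratios of NFKB1 entered its choice, and the lists were made with earlier results known, so nothing is read from this. Its 8 h ratio also averaged features that disagreed, at -0.02, 0.51 and 0.96. GADD45B, a stress-response gene, stood at 0.58, -0.12, 0.26 and -0.10. Nearest to TNF were GPX4 (0.144), DPM2 (0.199) and INTS7 (0.209), to LTA PMS2 (0.130), GAPDH (0.186) and CYLD (0.189), and to IL10 NF1 (0.133), ALDOA (0.143) and UGCG (0.150). GAPDH and ALDOA are glycolytic enzymes, and GAPDH stood at 0.41, -0.14, 0.19 and -0.39. Profiles close to those of members thus also occurred outside the pathway lists. Nearest to EBI3 were EPG5 (0.111), RAB5B (0.141) and TP53I11 (0.164), to CD44 ATP11B (0.125), MX1 (0.149) and PPP1R18 (0.149), and to BCL3 MMP7 (0.112), NBAS (0.137) and RGS3 (0.156).

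Markers of other cell types were read by their ratios alone. Of 12 T cell, 4 monocyte and 4 erythroid markers measured on all arrays 0 passed in the mean (limma), and 0 did for 24 h minus early (0 also at an unadjusted p under 0.05). Their median differences of 24 h minus early were 0.09, 0.10 and 0.09. Among 13 B-cell markers CD72 and CD79A rose (5.56% of all rows did), with means of 0.41 each (limma adjusted p = 0.0482 and 0.039). The median difference of the 13 was 0.10.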

How the data were processed

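The authors' deposited values are log2 ratios, 1 per feature and array. Oligo dT primed cDNA of 50 ug total RNA was labelled, per the labels' protocols. How the ratios were background-corrected and normalized, their log base and direction, and why cells are empty is not given in the sources used here. A log2 scale and Cy5 over Cy3 were taken from the values and the labels' dyes. Symbols came from the platform annotation, updated by Entrez ID (all 24 member features matched), and features of a gene were averaged per array. Rows with values on all 4 arrays, 6798, were tested with limma 3.58.1 in R 4.3.3 (lmFit, eBayes): the mean against 0 (3 residual degrees of freedom), and 24 h minus early with kind of control as covariate (1 residual degree of freedom, 17.5 prior). Benjamini-Hochberg adjustment ran over all rows, with a threshold of 0.05. The code was tested on simulated data: of 100 rows changed by 0.5, 27 were recovered in the time comparison, and 99 of 100 changed by 1, with 19 false calls beside them (6798 rows). The false calls were a larger share of all calls than the threshold of 0.05. Simulated noise was normal, independent between arrays and without an effect of control, so these counts describe the code and not the real arrays. The median SE was 0.0951 for the mean and 0.185 for the time difference, since the number of arrays limits the precision.

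Members and lists were chosen with earlier results of these data known. Named genes were the 7 members, all measured subunits, inhibitors and partners of interleukin-10 and EBI3, up to 4 passing genes per other list, and the 3 nearest genes per member. LTB, measured beside LTA, was named after its values were seen. Promoter windows were searched as letters alone.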

Additional observations from a re-analysis of the deposited data

Results flagged for a closer look

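NFKB1, TNF and IL10 had ratios above 0 on both early arrays and below 0 on both 24 h arrays, as means over the features measured on each array. Over only the features with values on all arrays, this held for TNF, but NFKB1 was at -0.02 at 8 h and IL10 at -0.09 at 6 h. For TNF the 24 h value against no siRNA was -0.06, from features at -0.35, -0.01 and 0.18. The differences of 24 h minus early of NFKB1, TNF and IL10 were -0.57, -0.54 and -0.55 on the log2 scale. The difference was not tested for these genes, because the values entered their choice. The groups are single arrays per kind of control, so the sign of each array rests on its own features: NFKB1 on 2 or 3, TNF on 3 to 5 and IL10 on 2 or 3.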

How the results depend on the processing

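The differences of 24 h minus early of NFKB1, TNF, LTA and IL10 were below 0 in all 20 values from 5 alternatives (centred arrays, scaled arrays, medians of features, complete features, and features shared by a pair, the last chosen after seeing the data). They ran from -0.61 to -0.35 for NFKB1, -0.60 to -0.53 for TNF, -0.62 to -0.53 for LTA and -0.57 to -0.46 for IL10. The genes were chosen by their early against 24 h ratios, and each alternative reuses the same arrays. The shared sign is therefore no independent check and shows only how far the size moved. The means of EBI3, CD44 and BCL3 stayed between 0.38 and 0.52, left-out arrays included. The time difference of CD44 was below 0 in all 5 alternatives, from -0.26 to -0.13. That of EBI3 was -0.13 with scaled arrays, and that of BCL3 ran from -0.17 to 0.12. At a log2 size of 0.3 in place of 0.5, 4 of the 7 genes were lower at 24 h relative to control siRNA (12.9% of rows were) and 3 relative to no siRNA (20.3% of rows), and at 0.7, 1 and 0 (1.74% and 2.74% of rows). Rows called for the mean (1073) numbered 0 to 441 with an array left out, and pathway genes (11) 0 to 3. In limma 2179 rows had an unadjusted p under 0.05 where 0 were called. Rows called for 24 h minus early (8) were 61 with centred arrays, 98 with medians of features, 26 with complete features, 5 with robust eBayes, and 0 with scaled arrays or with time alone (limma, 534 and 437 at an unadjusted p under 0.05). The cause was not tested. Pathway genes called by time were 0 throughout, with 8 to 15 at an unadjusted p under 0.05. Without scanner intensities, signal over background is unknown. The labels give no replicate numbers, and the time comparison compared arrays within each kind of control.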
